A study of Mus musculus with 2 samples.

Results

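The genes that build and remodel the actin cytoskeleton, together with 3 modifiers of spinal muscular atrophy (SMA), were followed across the cell classes of the mouse spinal cord. The 10 genes were found by symbol among the 32285 genes of the files. They are the cytoplasmic actins Actb and Actg1, the actin monomer binders Tmsb4x, Tmsb10, Pfn1 and Pfn2, the filament severing factor Cfl1, and the modifiers Pls3, Coro1c and Chp1. All 10 were present in both libraries.

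Dissociated whole spinal cords of FVB mice had been taken at postnatal day 4 for single-cell RNA-seq, which gave 1 library labelled SMA (mSmn-/-, hSMN22tg/0) and 1 labelled Con (mSmn+/-, hSMN22tg/0). Both genotypes come from crosses of the Taiwanese SMA line, in which the mouse Smn1 gene is disrupted and a human SMN2 transgene is present. The study names the first genotype severe and the second control. The Con mice thus also carried the transgene and lacked 1 Smn1 allele. Per the study, 3 littermates of each genotype were pooled into 1 sample, and the Con mice came from the same litter as the SMA mice. The sexes were not stated.

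Because each group was 1 library, the spread between animals is unknown. No test between groups was made, and all 95% intervals below cover counting error only. The files held 26921 barcodes with 85872075 UMIs labelled SMA and 25419 barcodes with 97894084 UMIs labelled Con, where a UMI (unique molecular identifier) tags 1 captured RNA molecule. The libraries had 8163 barcodes in common, and these were left out of the library labelled SMA. After filtering, 6787 cells labelled SMA and 8916 labelled Con remained, with a median of 6109 and 6232 UMIs. Classes of at least 50 cells in each library were compared, which gave 11 classes, named "-like" because they were rebuilt from marker genes. OPC are oligodendrocyte precursors and COP are committed oligodendrocyte precursors. Among the compared classes, median UMIs differed most in oligodendrocyte-like cells, at 5010 labelled SMA and 1743 labelled Con, and in fibroblast-like cells, at 8890 and 3489. The other compared classes had closer medians. Neuron-like (45 and 26 cells), macrophage-like (38 and 66) and monocyte-like cells (21 and 285) were not compared, and ranks of classes below are over the 11. Smn1, the targeted gene, stood at 51.7 CPM (UMIs of a gene scaled to a common total of all UMIs) labelled SMA and 50.7 CPM labelled Con outside the erythroid-like class, a log2 ratio of 0.03 (-0.05 to 0.11). A lower Smn1 level was not detectable, the files do not show whether the counted 3′ end lies within the disrupted part, and SMA and Con below stand for the library labelled so.

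Actin filaments grow by adding monomers of β- and γ-actin, the products of Actb and Actg1. β-thymosins hold monomers in reserve, profilins deliver them to growing ends, and cofilin cuts and disassembles old filaments. Plastin 3 bundles filaments and coronins act on branched networks; raised levels of either are known to protect motor neurons from low SMN, as is a lowered level of Chp1, a calcineurin inhibitor that binds plastin 3.

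The promoters of Actg1, Cfl1 and Tmsb10, chosen after their values were seen because their direction was most alike over classes, are shown first, with the CArG box, the site of serum response factor that is known from actin promoters, and each GC box in capitals. The CArG box was searched as CC, 6 bases of A or T and GG, the GC box as GGGCGG and the TATA motif as TATAAA. Both strands were searched, counting overlapping sites. RefSeq promoters on GRCm38.p6, from 250 bases before to 50 bases after the start and written 5′ to 3′ on the strand of the gene, were matched for 9 of the 10 genes (13 promoters). Actb had no entry. Tmsb10 had 3 entries, with 1, 2 and 2 GC boxes, and the first listed is shown.
Actg1, chr11:120348446-120348745, minus strand: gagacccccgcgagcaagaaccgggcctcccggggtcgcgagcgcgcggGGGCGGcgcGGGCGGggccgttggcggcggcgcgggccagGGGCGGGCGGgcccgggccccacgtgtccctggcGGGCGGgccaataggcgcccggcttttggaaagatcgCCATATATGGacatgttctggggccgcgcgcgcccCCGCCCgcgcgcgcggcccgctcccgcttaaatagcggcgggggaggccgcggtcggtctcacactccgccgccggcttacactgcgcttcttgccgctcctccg
Cfl1, chr19:5490205-5490504, plus strand: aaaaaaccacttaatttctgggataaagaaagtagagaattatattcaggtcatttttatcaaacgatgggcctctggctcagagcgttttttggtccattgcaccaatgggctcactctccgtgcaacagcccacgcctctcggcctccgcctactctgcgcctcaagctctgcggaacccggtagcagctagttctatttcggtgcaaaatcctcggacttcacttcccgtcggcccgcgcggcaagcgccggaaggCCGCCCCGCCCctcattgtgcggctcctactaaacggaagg
Tmsb10, chr6:72958699-72958998, minus strand: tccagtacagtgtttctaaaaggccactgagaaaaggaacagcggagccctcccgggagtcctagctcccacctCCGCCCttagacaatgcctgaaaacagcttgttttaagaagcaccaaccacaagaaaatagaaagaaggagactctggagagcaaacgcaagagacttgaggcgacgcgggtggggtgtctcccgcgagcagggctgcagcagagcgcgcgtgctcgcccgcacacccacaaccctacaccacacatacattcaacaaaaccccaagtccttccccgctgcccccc
The Actg1 promoter held 1 CArG box, with its first base at -90 when the start is counted as 0, and 6 GC boxes. It was the only one of the 13 promoters with a CArG box, which 1.63% of 32851 mouse promoters held. A GC box was found in 12 of the 13, against 35.7% of all promoters, and the TATA motif in none of the 13, against 13.6%. Some entries of Pls3 and of Tmsb10 overlap, so the 12 count some GC boxes more than once. These matches describe letters and not binding.

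Pairs of gene and class were called at a ratio of 1.5-fold or more and are set beside the share of all genes in the class. Over the 10 genes, 100 gene and class pairs had at least 100 UMIs, and 7 passed 1.5-fold, 3 higher and 4 lower in SMA. Fibroblast-like cells held 4 of the 7 (Pls3, Coro1c, Pfn2 and Actg1), in a class where 35.5% of 4075 genes passed. Schwann-like cells held 2 (Pfn2 and Tmsb10), where 11.1% of genes passed, and erythroid-like cells held 1 (Tmsb10), where 12.6% passed. Among the 9 or 10 genes measured in each of the other classes, none passed in OPC-like cells (3.22% of genes), astrocyte-like cells (4.24%), microglia-like cells (4.70%), ependymal-like cells (4.90%), COP-like cells (5.74%), oligodendrocyte-like cells (9.05%), endothelial-like cells (9.23%) or mural-like cells (11.7%). Tmsb10 in astrocyte-like cells, at 0.58, was close to the limit and passed it in 7 of 13 alternative settings. As shares, 4 of 10 genes in fibroblast-like, 2 of 8 in Schwann-like and 1 of 7 in erythroid-like cells passed, so the fibroblast-like and erythroid-like shares were near the background.

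**Figure D1:**
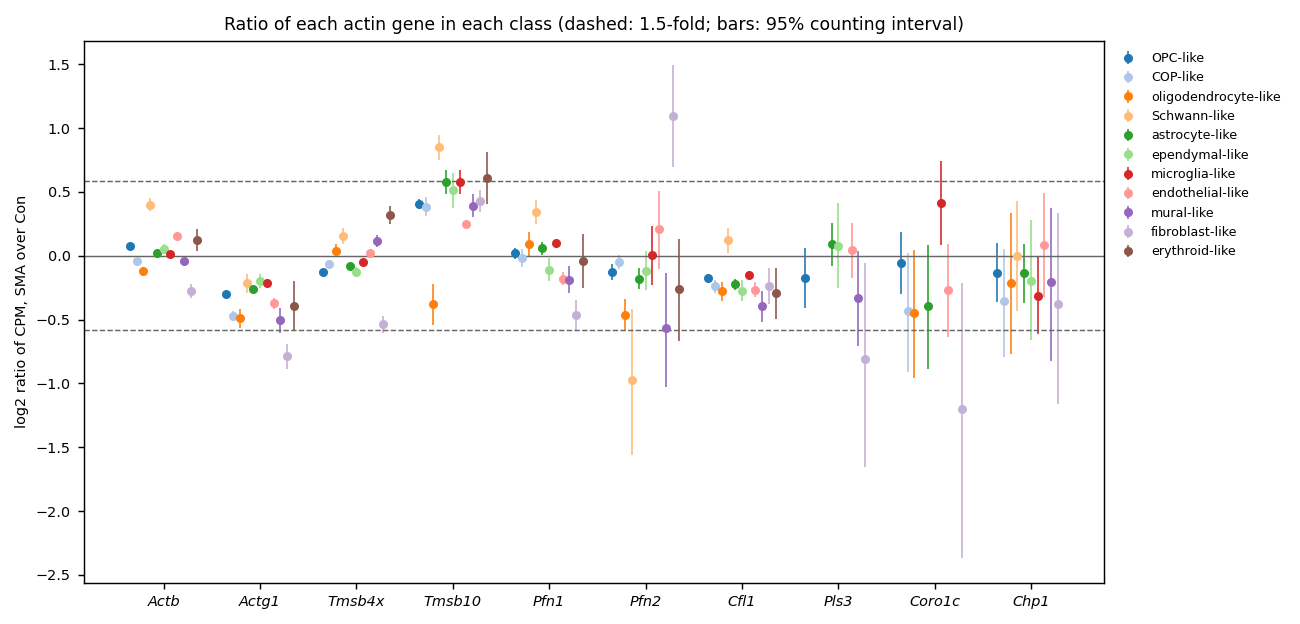
Log2 ratio of CPM, SMA over Con (y axis), of the 10 genes (x axis) in each class (colours) with 95% counting intervals, a solid line at 0 and dashed lines at 1.5-fold. The Actg1 points lie below 0 in 11 of 11 classes and the Tmsb10 points above 0 in 10, while Actb and Pfn1 scatter on both sides and Pls3, Coro1c and Chp1 have wide intervals.

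Actg1 was the gene with the most uniform difference between the libraries. This γ-actin gene (ENSMUSG00000062825, GRCm38 chromosome 11, 120345690 to 120348542, minus strand, protein-coding) was lower in SMA in 11 of 11 classes, and every counting interval lay below 0. Among the 1028 genes measured (100 UMIs or more) in each of the 11 classes, 45 (4.38%) were lower in 11 of 11. In COP-like cells, where it was highest, it stood at 2826 CPM in SMA and 3927 CPM in Con, a log2 ratio of -0.47 (-0.51 to -0.44). Its 2 clusters held 206 and 83 SMA cells and 399 and 324 Con cells, and within them the ratio was smaller, at -0.32 (-0.37 to -0.26) and -0.37 (-0.42 to -0.32). In OPC-like cells it was 1517 and 1866 CPM (-0.30, -0.33 to -0.27). In mural-like cells, the pericytes and smooth muscle of vessels, it was 1867 and 2647 CPM (-0.50, -0.60 to -0.41). The smallest difference was in ependymal-like cells, at 1706 and 1958 CPM (-0.20, -0.26 to -0.14). The largest was in fibroblast-like cells, at 1697 and 2929 CPM (-0.79, -0.88 to -0.69), the only class in which it passed 1.5-fold, and -0.40 in the cluster that both libraries share, short of 1.5-fold. The other 6 classes lay between these, from 2573 and 2983 CPM in microglia-like cells (-0.21) to 1595 and 2240 CPM in oligodendrocyte-like cells (-0.49). The median over classes was -0.37, and 1.85% of the 1028 genes had a lower median.

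The classes come from the same 2 libraries and are not independent of each other. Over the 24 clusters with at least 50 cells in each library, 1 of them the unnamed cluster 13 of low depth, Actg1 was lower in 24, from -0.66 to -0.09. Its direction in all classes held in 11 of 13 alternative settings. With the shared barcodes kept, 10 of 11 classes were lower, the erythroid-like ratio became 0.04 and the median became -0.21. With cells under 5% mitochondrial share, 6 of 7 classes were lower and the astrocyte-like ratio became 0.07.

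Actb, the β-actin gene (ENSMUSG00000029580, chromosome 5, 142903115 to 142906754, minus strand), did not share this direction. It was higher in SMA in 7 classes and lower in 4, with a median of 0.02, and passed 1.5-fold in none of the 11. Microglia-like cells, where Actb was highest, had 13796 CPM in SMA and 13642 CPM in Con (0.02, 0.00 to 0.03). OPC-like cells had 6544 and 6207 CPM (0.08, 0.06 to 0.09). The largest differences were 6174 and 4674 CPM in Schwann-like cells (0.40, 0.35 to 0.45) and 4934 and 5969 CPM in fibroblast-like cells (-0.27, -0.33 to -0.22), where the ratio turned to 0.22 in the shared cluster.

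The balance of the pair does not depend on the library totals. Because counts of 3′ ends of different genes are not captured alike, it is compared between classes and libraries and is not read as a ratio of molecules. Actg1 took a smaller share of the UMIs of the pair in SMA in 11 of 11 classes, and the exact binomial intervals of the libraries were apart in 11. In COP-like cells the share was 23.8% (23.3 to 24.3) in SMA and 29.6% (29.3 to 29.9) in Con. In Schwann-like cells it was 26.1% (25.1 to 27.1) and 35.2% (34.4 to 36.0), the widest gap among the 11. In microglia-like cells it was 15.7% (15.5 to 15.9) and 17.9% (17.7 to 18.2), the narrowest on the log2 scale at -0.23. Neuron-like cells, whose Actg1 share was the largest of the named classes in each library, had 35.0% (33.3 to 36.7) and 43.0% (40.8 to 45.2). Of the other classes too small to compare, macrophage-like cells had 14.4% (13.4 to 15.4) and 16.3% (15.4 to 17.1), and monocyte-like cells (21 and 285) went the other way, at 23.0% (20.7 to 25.3) and 18.9% (18.1 to 19.6).

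**Figure D2:**
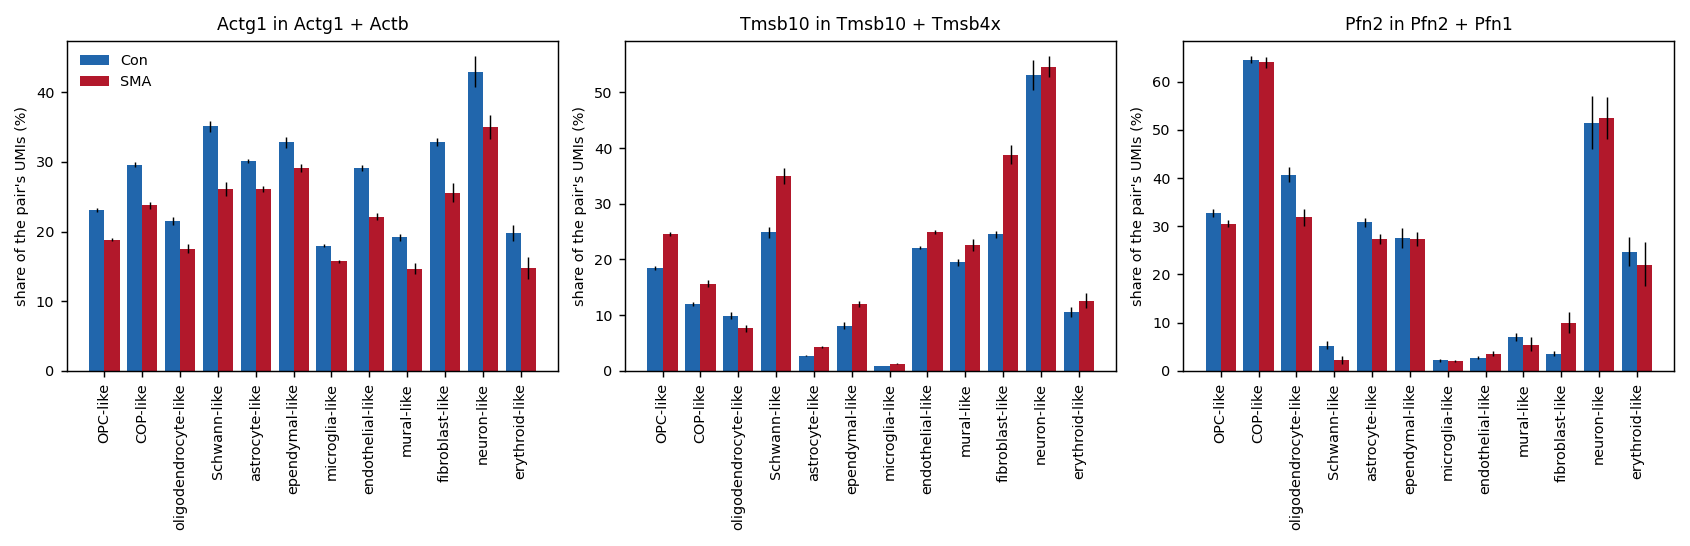
Share of Actg1, Tmsb10 and Pfn2 in the UMIs of its pair (y axis, %) in the 11 compared classes and the neuron-like class (x axis), with blue bars for Con, red bars for SMA and 95% binomial intervals. The Actg1 share is lower in SMA in 11 of the 11 compared classes, the Tmsb10 share is higher in 10 of 11, and the Pfn2 share differs between classes by far more than between libraries.

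Tmsb10 differed in the opposite direction. Thymosin β10 (ENSMUSG00000079523, chromosome 6, 72957347 to 72958748, minus strand) was higher in SMA in 10 of 11 classes, with intervals above 0 in these 10. Of the 1028 genes, 257 (25%) were higher in at least 10 of 11. Astrocyte-like cells, where it was lowest outside the erythroid-like class, had 223 CPM in SMA and 149 CPM in Con (0.58, 0.48 to 0.67). Microglia-like cells had 329 and 220 CPM (0.58, 0.49 to 0.67). OPC-like cells had 1072 and 808 CPM (0.41, 0.37 to 0.45). Endothelial-like cells, where it was highest, had 6223 and 5222 CPM (0.25, 0.22 to 0.28). The ratio passed 1.5-fold in Schwann-like cells, at 1726 and 957 CPM (0.85, 0.75 to 0.95), and in erythroid-like cells, at 95.1 and 62.3 CPM (0.61, 0.41 to 0.81). The latter passed in 9 of 13 alternatives and came down to 0.40 with equal weight per cell. The astrocyte-like ratio ran from 0.50 to 0.86 over the alternatives. Oligodendrocyte-like cells were the exception, at 335 and 436 CPM (-0.38, -0.54 to -0.22).

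The median of Tmsb10 over classes was 0.43, above that of 96.8% of the 1028 genes. It was higher in 23 of the 24 clusters, the unnamed one included, from -0.47 to 0.99. In oligodendrocyte-like cells the clusters were divided. Cluster 12, led by Mobp, Mog and Ermn and of low depth (117 and 362 cells), had 803 and 687 CPM (0.22), while cluster 25, led by Cemip2 and Ddc (57 and 84 cells), had 245 and 340 CPM (-0.47). Tmsb10 was higher in every class when the clusters of a class were weighted alike, at a resolution of 2 and at a mitochondrial limit of 20%. The ratio in Schwann-like cells became 0.53 with the shared barcodes kept. Of the words of 90 bases in the last 500 bases of Tmsb10, 38.2% are shared with the gene models Gm3788 and Gm9844, so some of its reads may have been left uncounted. Gm9844 itself had 46 and 40 UMIs against 43601 and 48942 of Tmsb10 over the named cells.

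Tmsb4x, the thymosin β4 gene (ENSMUSG00000049775, chromosome X, 167207093 to 167209315, minus strand), was higher in 5 classes and lower in 6, with a median of -0.04. Among the compared classes it was highest in microglia-like cells, at 25381 CPM in SMA and 26182 CPM in Con (-0.04, -0.05 to -0.04), and endothelial-like cells, at 18712 and 18417 CPM (0.02, 0.01 to 0.04). The other compared classes lay at or under 8603 CPM. Of the classes too small to compare, monocyte-like cells had 19237 and 32652 CPM and macrophage-like cells 13535 and 16852 CPM. The largest ratios were -0.54 (-0.60 to -0.47) in fibroblast-like cells, at 3596 and 5218 CPM, which turned to 0.19 in the cluster that both libraries share, and 0.32 (0.25 to 0.39) in erythroid-like cells, at 662 and 531 CPM. As a share of the thymosin pair, Tmsb10 was higher in SMA in 10 of 11 classes and the intervals were apart in 9 of these 10. It was lowest in microglia-like cells, at 1.28% (1.23 to 1.33) in SMA and 0.83% (0.79 to 0.88) in Con. Fibroblast-like cells had 38.8% (37.2 to 40.5) and 24.5% (23.9 to 25.1). Schwann-like cells had 34.9% and 24.9%, the Con share slightly above that of fibroblast-like cells. The fibroblast-like gap was smaller in cluster 24, which both libraries share, where Tmsb10 stood at 2284 CPM in SMA and 1816 CPM in Con and Tmsb4x at 3596 and 3143 CPM. Neuron-like cells stood above these, at 54.6% (52.8 to 56.5) and 53.2% (50.5 to 55.8), with overlapping intervals.

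The profilins separated the classes more than the libraries. Pfn1 (ENSMUSG00000018293, chromosome 11, 70651850 to 70654644, minus strand), the ubiquitous profilin, was highest among the compared classes in endothelial-like and microglia-like cells, at 1819 and 2107 CPM in SMA and 2059 and 1970 CPM in Con. Monocyte-like cells, not compared, stood higher, at 3072 and 3865 CPM. It was lowest in astrocyte-like cells, at 620 and 595 CPM, apart from erythroid-like cells. It was higher in SMA in 5 classes and lower in 6, with a median of -0.02. The largest ratios of Pfn1 were 0.34 (0.25 to 0.43) in Schwann-like cells, at 1696 and 1338 CPM, and -0.46 (-0.58 to -0.35) in fibroblast-like cells, at 1213 and 1673 CPM, the latter 0.01 in the shared cluster.

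Pfn2 (ENSMUSG00000027805, chromosome 3, 57841895 to 57848079, minus strand), the profilin best known from neurons, peaked in COP-like cells, at 1626 CPM in SMA and 1680 CPM in Con (-0.05, -0.10 to 0.01). Oligodendrocyte-like cells followed, at 529 and 728 CPM (-0.46, -0.59 to -0.34), and OPC-like cells, at 336 and 366 CPM (-0.13, -0.19 to -0.06). The oligodendrocyte-like clusters differed, with 276 and 521 CPM in cluster 12 and 829 and 1000 CPM in cluster 25. Microglia-like cells had 43.2 and 43.1 CPM (0.00, -0.23 to 0.24). Apart from erythroid-like cells, the highest class exceeded the lowest 43.4-fold in SMA, where Schwann-like cells were lowest, and 39.0-fold in Con, where microglia-like cells were lowest. The share of Pfn2 in the profilin pair was 64.0% (62.8 to 65.3) in SMA and 64.5% (63.8 to 65.3) in Con in COP-like cells, 30.6% and 32.7% in OPC-like cells, and 2.01% and 2.14% in microglia-like cells. Neuron-like cells had 52.5% (48.2 to 56.8) and 51.5% (46.0 to 57.1). Between libraries the intervals were apart in 5 of 11 classes, of which 4 were lower and 1 higher in SMA.

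Pfn2 passed 1.5-fold in 2 classes, in opposite directions. Schwann-like cells had 33 UMIs in SMA and 144 in Con, or 37.5 and 73.5 CPM (-0.97, -1.56 to -0.42). Fibroblast-like cells had 78 and 173 UMIs, or 132 and 61.8 CPM (1.10, 0.69 to 1.49), and 0.62 within the cluster that both libraries share. The Schwann-like ratio became -0.23 without an upper limit of genes. In mural-like cells, Pfn2 stood at 93.8 and 139 CPM (-0.57, -1.03 to -0.13) and turned to 0.09 with the shared barcodes kept.

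Cfl1, the gene of cofilin 1 (ENSMUSG00000056201, chromosome 19, 5490455 to 5495201, plus strand), was lower in SMA in 10 of 11 classes, with intervals below 0 in these 10, while 123 (12%) of the 1028 genes were lower in at least 10. Microglia-like cells, where it was highest, had 2184 CPM in SMA and 2425 CPM in Con (-0.15, -0.18 to -0.12). COP-like cells had 1821 and 2151 CPM (-0.24, -0.29 to -0.19), and mural-like cells had 1185 and 1559 CPM (-0.40, -0.52 to -0.27), its lowest ratio. Schwann-like cells went the other way, at 1458 and 1340 CPM (0.12, 0.02 to 0.22). The median was -0.24, and 8.17% of the 1028 genes had a lower median. Over clusters Cfl1 was lower in 21 of 24, from -0.47 to 0.12 (0.04 in the unnamed cluster), and in 13 of 13 alternative settings at most 1 class was higher. With cells under 5% mitochondrial share the median came to -0.06 over 7 classes and the oligodendrocyte-like ratio turned to 0.15. The ratio in fibroblast-like cells, -0.24, became -0.03 in the shared cluster.

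**Figure D3:**
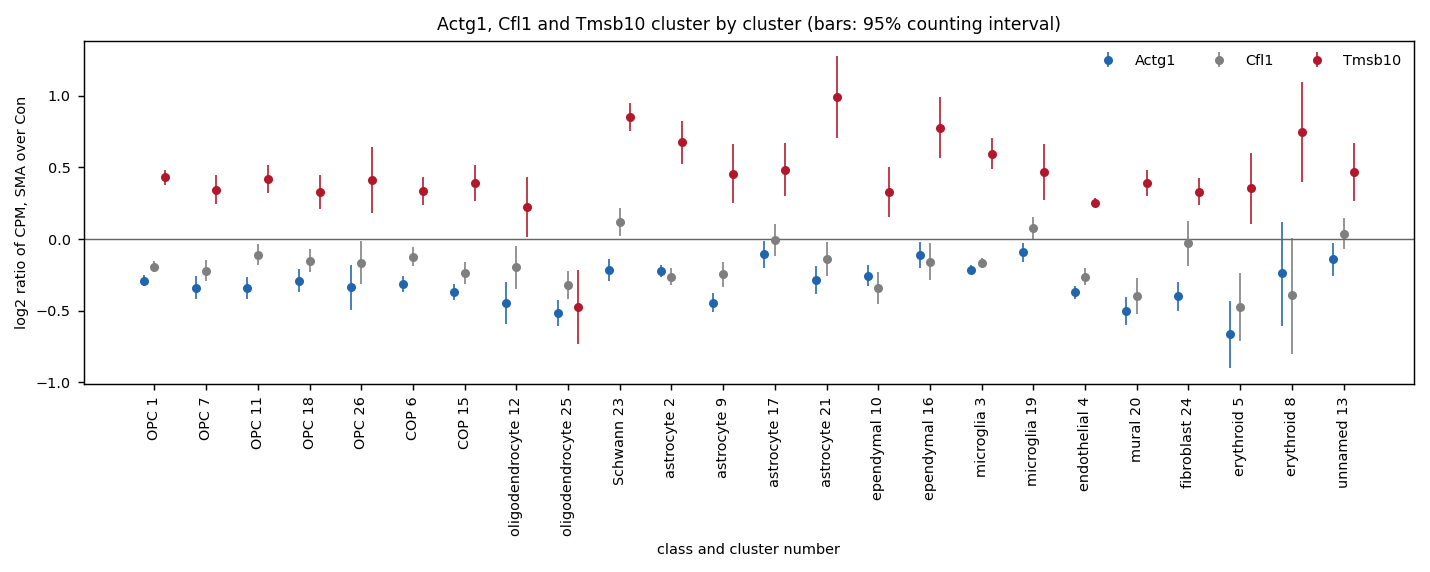
Log2 ratio of CPM, SMA over Con (y axis), of Actg1 (blue), Cfl1 (grey) and Tmsb10 (red) in each of 24 clusters (x axis, class and cluster number, with 1 unnamed cluster) with 95% counting intervals. Actg1 lies below 0 in 24 of 24 clusters, Cfl1 in 21 and Tmsb10 above 0 in 23, the exception being oligodendrocyte cluster 25 at -0.47.

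The SMA modifiers had lower counts than the other genes in most of the compared classes, and the intervals of their ratios are wide. Pfn2 was the exception, below Pls3 in endothelial-like and mural-like cells and below Chp1 in Schwann-like cells. Pls3, the plastin 3 gene (ENSMUSG00000016382, chromosome X, 75785654 to 75875182, minus strand), was highest in the cells of vessels in both libraries. It was greatest in mural-like cells, at 139 CPM (110 to 174) in SMA and 174 CPM (155 to 195) in Con, and in endothelial-like cells, at 125 CPM (111 to 139) and 121 CPM (110 to 133). The intervals of these 2 classes overlapped in SMA and not in Con. Ependymal-like cells, at 60.2 and 57.1 CPM, and astrocyte-like cells, at 58.6 and 55.1 CPM, followed, with intervals that overlapped each other. Fibroblast-like cells had 27.2 and 47.5 CPM and OPC-like cells had 25.4 and 28.6 CPM. Schwann-like cells had 11.4 and 24.99 CPM. COP-like cells, at 8.93 and 8.72 CPM, oligodendrocyte-like cells, at 11.2 and 12.3 CPM, and microglia-like cells, at 4.74 and 8.22 CPM, were near the bottom. Erythroid-like cells were lowest at 3.40 and 1.69 CPM, with an interval that overlapped that of microglia-like cells in SMA. Neuron-like cells had 4 and 1 Pls3 UMIs. That class was led by Snhg11, Pkd2l1 and Cartpt, and the study could not tell whether its neurons were motor neurons.

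Within ependymal-like cells, Pls3 was higher in cluster 16, led by Pdyn and Calb1, than in cluster 10, led by Crygn, Agr3 and Stoml3, at 100 against 35.6 CPM in SMA and 79.97 against 39.4 CPM in Con. Between libraries Pls3 was measured in 6 classes, 3 higher and 3 lower, with a median of -0.06. Its ratio was 0.04 (-0.17 to 0.26) in endothelial-like cells, 0.09 (-0.08 to 0.26) in astrocyte-like cells, 0.08 (-0.25 to 0.41) in ependymal-like cells, -0.17 (-0.41 to 0.06) in OPC-like cells and -0.33 (-0.71 to 0.04) in mural-like cells. A difference was not detectable in these 5. The sixth, fibroblast-like cells with 16 and 133 UMIs, stood at -0.81 (-1.66 to -0.06) and at -0.17 in the shared cluster.

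Coro1c, the coronin 1C gene (ENSMUSG00000004530, chromosome 5, 113842436 to 113908758, minus strand), was highest among the compared classes in endothelial-like cells, at 40.7 CPM (33.2 to 49.6) in SMA and 49.1 CPM (42.1 to 56.9) in Con, and in oligodendrocyte-like cells, at 35.6 CPM (26.8 to 46.5) and 48.6 CPM (39.5 to 59.2). Intervals of neighbours overlapped down to Schwann-like cells, at 21.6 and 17.3 CPM, except for OPC-like and microglia-like cells in Con. Outside the compared classes, macrophage-like cells had 60.4 and 24.9 CPM on 22 and 16 UMIs, and monocyte-like cells 19.9 and 70.5 CPM on 2 and 43 UMIs. Astrocyte-like cells, at 6.64 and 8.74 CPM, and ependymal-like cells, at 6.07 and 6.06 CPM, were lowest apart from erythroid-like cells. Coro1c was measured in 7 classes and was lower in SMA in 6, with a median of -0.40, but only the fibroblast-like interval lay below 0, on 9 and 98 UMIs (-1.20, -2.37 to -0.21). In the cluster that both libraries share, this ratio was -0.63 (-1.87 to 0.46). Microglia-like cells were higher in SMA, at 25.8 and 19.4 CPM (0.41, 0.08 to 0.74). In oligodendrocyte-like cells the ratio of -0.45 (-0.95 to 0.04) turned to 0.43 with the shared barcodes kept. Over all settings the median of Coro1c stayed below 0 and came up to -0.16.

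Chp1, the gene of calcineurin-like EF-hand protein 1 (ENSMUSG00000014077, chromosome 2, 119547697 to 119587027, plus strand), was highest among the compared classes in Schwann-like cells, at 76.1 CPM (59.0 to 96.7) in SMA and 76.0 CPM (64.3 to 89.2) in Con. Mural-like cells followed, at 55.9 CPM (38.0 to 79.4) and 64.4 CPM (53.2 to 77.4). The other 8 classes apart from erythroid-like cells lay between 23.5 and 36.3 CPM in SMA and between 29.2 and 41.8 CPM in Con, each overlapping its neighbour among these 8. Chp1 was lower in SMA in 8 of 10 classes, with a median of -0.20 and no class past 1.5-fold. The one interval off 0 was that of microglia-like cells, at 23.5 and 29.2 CPM (-0.31, -0.62 to -0.01).

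**Figure D4:**
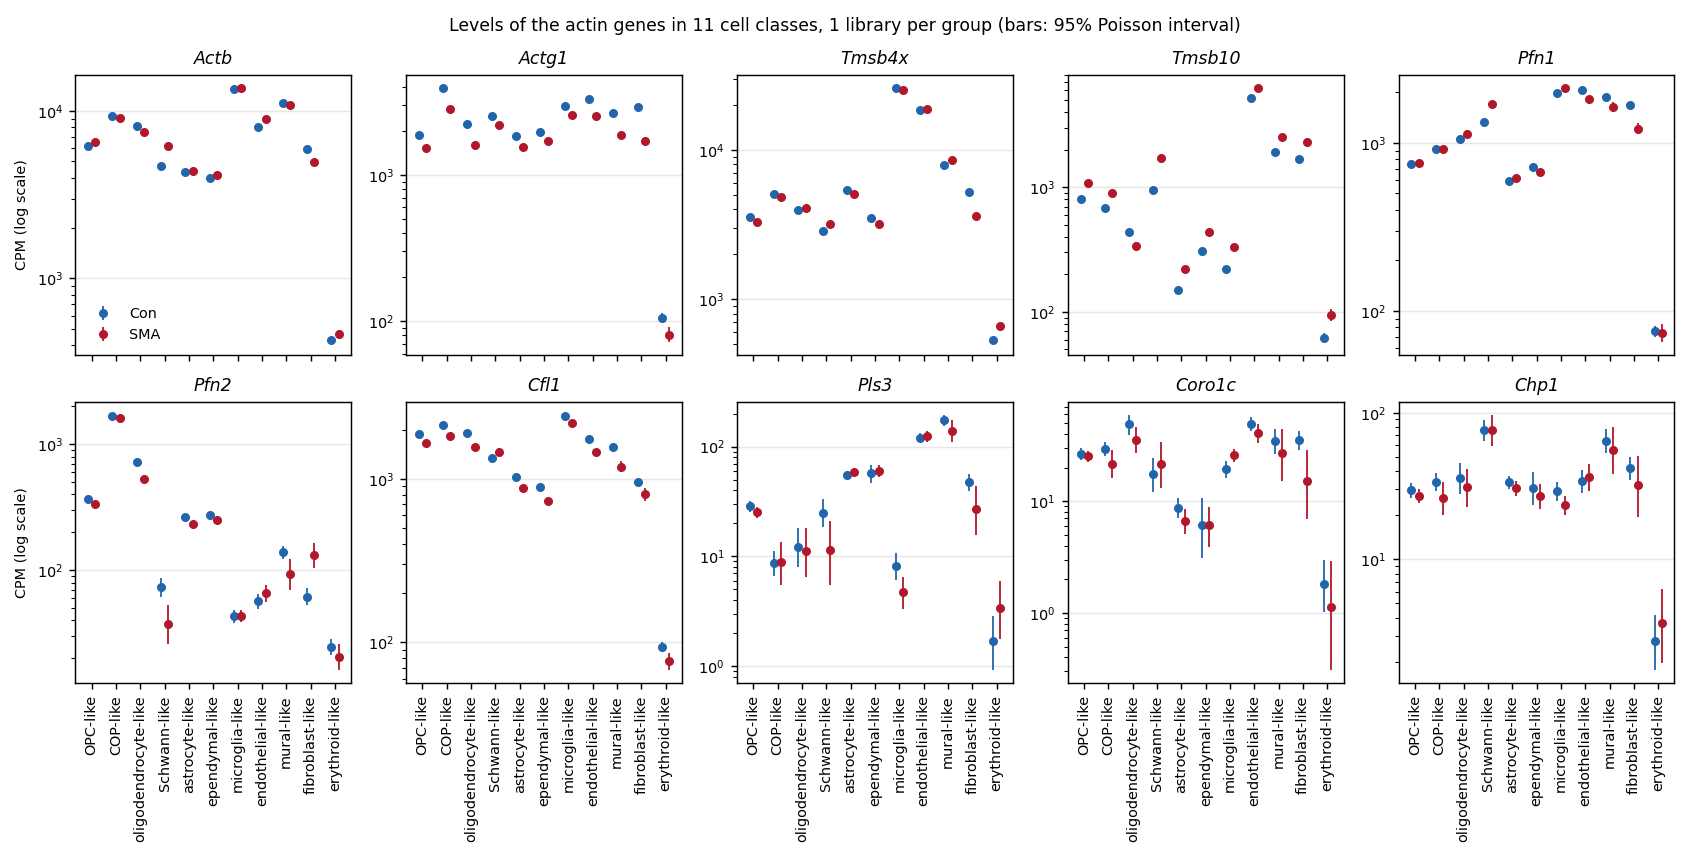
CPM (y axes, log scale) of the 10 genes in the 11 compared classes (x axes), with blue points for Con, red points for SMA and 95% Poisson intervals. Pls3 is highest in mural-like and endothelial-like cells, Pfn2 in COP-like cells, Tmsb10 in endothelial-like cells and Chp1 in Schwann-like cells in both libraries.

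The share of cells with a UMI was also taken for these low genes. Each cell was thinned to 2000 UMIs, which left out 0 to 6 SMA cells and 2 to 43 Con cells in each class named here. A Pls3 UMI was then found in 31.1% of mural-like cells in SMA and 27.5% in Con, and in 20.0% and 19.4% of endothelial-like cells. In erythroid-like cells, which should lack the gene, the shares were 0.798% and 0.116%. Haemoglobin genes summed to 896681 and 896448 CPM in that class, so few of its 2000 UMIs per cell came from other genes. Unthinned, the mural-like shares were 51.1% and 53.8% and the erythroid-like shares 3.16% and 1.55%. Microglia-like cells had 1.32% (0.723 to 2.20) and 1.28% (0.641 to 2.28) thinned and 3.38% and 5.52% (4.10 to 7.25) unthinned. In Con the unthinned interval lay above that of erythroid-like cells (0.847 to 2.58), and the thinned ones barely overlapped. For Chp1 the thinned share was 17.6% (10.4 to 27.0) and 11.8% (7.78 to 16.9) in Schwann-like cells, with overlapping intervals, against 0.532% and 0.463% in erythroid-like cells. For Coro1c it was 6.88% and 7.80% in endothelial-like cells against 0 of 376 cells with a UMI (exact interval up to 0.976%) and 0.348%. Median depths were 5725 and 6514 UMIs in mural-like cells and 9607 and 9604 UMIs in erythroid-like cells.

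Libraries and clusters that stand apart touch some of these values. The fibroblast-like class held 63 SMA and 601 Con cells, and its cluster 14, led by Mfap5, Timp1 and Pi16, had 0 SMA and 432 Con cells. In cluster 24, which both libraries share, Actg1 stood at -0.40, Tmsb10 at 0.33, Tmsb4x at 0.19, Actb at 0.22 and Pfn1 at 0.01. Tmsb4x, Actb and, barely, Pfn1 thus turned direction there. The fibroblast markers of the whole list summed to 10809 CPM in SMA and 26338 CPM in Con. Markers of erythroid cells, mostly haemoglobin, were lower in SMA in 9 of the other 10 classes and ranged from 410 to 25817 CPM in SMA and from 19123 to 62123 CPM in Con. With haemoglobin, ribosomal and mitochondrial genes taken out of the totals, Actg1 was lower in 11 of 11 classes (-0.75 to -0.18), Cfl1 lower in 10 and Tmsb10 higher in 10. Pls3 and Tmsb4x lie on the X chromosome, and Xist stood at 0.00 to 6.38 CPM in SMA and 5.79 to 875 CPM in Con over the 11 classes. Y-linked genes summed to 7.08 to 220 CPM in SMA and 3.50 to 110 CPM in Con, higher in SMA in each of the 11 classes. The median ratio of X-linked genes lay between -0.09 and 0.11 over the 11 classes. Xist and Y-linked levels thus differed along with the group. The part of sex in the ratios of Pls3 and Tmsb4x, or of any other gene, was not tested.

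The other actin genes were taken from lists grouped by role, 80 genes in 12 lists, of which 79 were measured in a class. They gave 603 measured gene and class pairs, of which 42 passed 1.5-fold, 14 higher and 28 lower in SMA. Fibroblast-like cells held 17 of the 42, or 34.0% of the 50 genes measured there against 35.5% of all genes. Of these 17, 16 were lower and 1 higher, while 22.0% of all genes in the class were lower and 13.4% higher past the fold. Mural-like cells had 6 of 48 (12.5% against 11.7%) and Schwann-like cells 4 of 45 (8.89% against 11.1%). In the other classes the share ran from 0 of 72 in OPC-like cells, against 3.22% of all genes, to 3 of 47 in oligodendrocyte-like cells (6.38% against 9.05%). Each of these shares was below that of all genes in its class. The median over all pairs was -0.02.

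Of the 12 genes with the largest median ratio in size, 8 had a median below 0 and 4 above. Fscn1, the filament bundling fascin, was lower in 9 of 10 classes (median -0.39), with 250 and 393 CPM in endothelial-like cells (-0.65, -0.79 to -0.51). Cap1, which recycles actin monomers together with cofilin, was lower in 9 of 10 (median -0.35), with 180 and 215 CPM in microglia-like cells. Rac1, the GTPase that drives branched networks, was lower in 10 of 11 (median -0.31), and Cnn3, a calponin, in 10 of 11 (median -0.23). Among the 1028 genes measured in each of the 11 classes, 123 were lower in at least 10 of 11. No such count is given for genes measured in fewer classes, such as Fscn1, Cap1 and Zpr1. Gsn, the severing protein gelsolin, had a median of -0.32 and was higher in oligodendrocyte-like cells, at 908 and 563 CPM (0.69, 0.58 to 0.80). That class drew 117, 57 and 26 SMA cells and 362, 84 and 19 Con cells from its 3 clusters. Its marker list summed to 67966 CPM in SMA and 56453 CPM in Con, with Mog at 1370 and 720 CPM and Mal at 1240 and 482 CPM. Mbp, at 19836.5 and 21179.6 CPM, and Cnp, at 5804 and 6062 CPM, went the other way. The part of the clusters and markers in the Gsn ratio was not tested. Flna, a filament crosslinker, and Evl, of the Ena/VASP family, both had a median of -0.26. Zpr1, an SMN partner that modifies SMA, was lower in 7 of 7 classes (median -0.37). Higher medians were found for Eps8 (0.41), Mrtfb (0.35), Rock2 (0.31) and Wipf1 (0.27). Mrtfb encodes a cofactor of serum response factor that actin monomers hold back, and Rock2 a kinase downstream of RhoA.

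**Figure D5:**
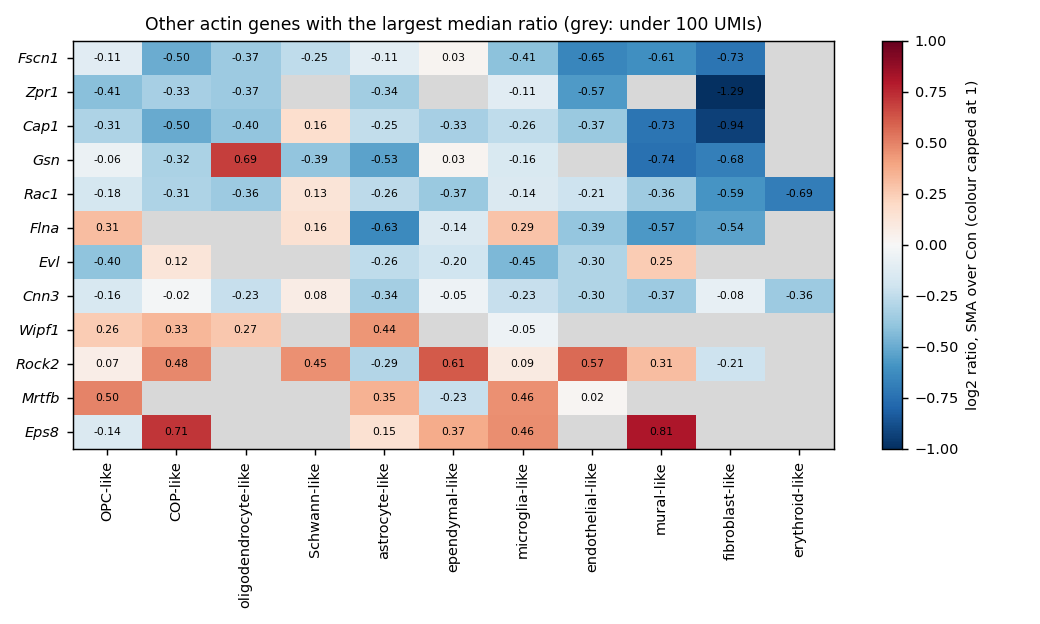
Log2 ratio, SMA over Con, in each class (columns) for the 12 genes of the other actin lists with the largest median ratio (rows), with the value printed and grey where under 100 UMIs were counted. Fscn1, Cap1, Rac1 and Cnn3 are below 0 in 9 or 10 classes each, while Eps8, Rock2, Mrtfb and Wipf1 are mostly above 0.

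Some list genes told the classes apart more than the libraries. Of the gene with the widest range in Con in each list, Tpm2, a tropomyosin, ranged most, with 849 CPM in mural-like and 0.83 CPM in endothelial-like cells in Con, and stood at 303 CPM in mural-like cells in SMA (-1.49, -1.72 to -1.26). Smooth muscle markers were also lower in that class, with Acta2 at 2145 CPM in SMA and 5141 CPM in Con, Tagln at 1270 and 2460 CPM and Myh11 at 36.1 and 131 CPM, while the pericyte marker Rgs5 was at 7262 and 4716 CPM. Of the other listed markers of the class, Kcnj8, Abcc9, Notch3 and Higd1b were also higher in SMA, while Vtn was lower, at 3721 and 4117 CPM. The part of these markers in the mural-like ratios was not tested. Cald1, the caldesmon gene, was highest in mural-like cells (2093 CPM in Con). Coro1a (640 CPM) and Rac2 (395 CPM), genes best known from haematopoietic cells, were highest in microglia-like cells. Arpc1b (1568 CPM) and Gsn (563 CPM) were highest in oligodendrocyte-like cells, Cyfip2 (287 CPM) in COP-like cells and Ncald (519 CPM), another modifier of SMA, in OPC-like cells. Enah (112 CPM) and Ezr (306 CPM) were highest in ependymal-like cells, Mrtfb (46.3 CPM) in endothelial-like cells and Capg (172 CPM) in fibroblast-like cells, where Capg stood at 20.4 CPM in SMA, on 12 UMIs against 480. Of the 601 Con cells of that class, 432 came from the cluster with 0 SMA cells.

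Among themselves the 10 genes followed several patterns over the 20 points of 10 classes other than erythroid-like cells in 2 libraries. These points share their libraries and depth, and the correlations of log2 CPM are descriptions. Actb went with Cfl1 (r = 0.78), Tmsb4x (0.72) and Pfn1 (0.68). Pfn1 and Pfn2 ran opposite to each other (r = -0.70). Pls3 went most with Tmsb10 (0.46) and ran against Cfl1 (-0.52). Among 11225 genes, those most like Tmsb4x were Twf2 (r = 0.96), Klhl6 and Mef2a, and those most like Pls3 were Dab2ip (0.90), Gjc1 and Ablim1. Pfn2 was most like Opcml (0.95), Thra and Elovl4, and Pfn1 most like Inka1 (0.95), Myh9 and Ecscr. Cfl1 was most like Ube2q1 (0.95), Elmo1 and Shkbp1, Actb most like Mef2d (0.93), Shkbp1 and Actr3, and Tmsb10 most like Btf3 (0.93), Ltbp4 and Akap12. Chp1 was most like Art3 (0.94), Cryab and Rflna, and Coro1c most like Arf1 (0.89), Ywhab and Tspan4. Actg1 had the loosest likeness, with Exosc5 (0.78), Thoc6 and Tmem214. The names depended on the libraries used. Pfn2 was most like A330076H08Rik, Arhgap35 and Cdc37l1 in Con alone, and Pgam1, Stam and Pick1 in SMA alone. Actg1 was most like Irak1, Rps21 and Rps28 in Con alone, and Arf6, Elf1 and Pxn in SMA alone. Art3 for Chp1, Btf3 for Tmsb10 and Inka1 for Pfn1 were among the 3 most alike in each library.

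Levels also varied among the clusters of a class, given as a description because the clusters were drawn from the same cells, although without the 10 genes and the other actin genes. In COP-like cells Tmsb4x was lower in cluster 15, led by Enpp6, at 2692 CPM in SMA and 3089 CPM in Con, against 6037 and 7160 CPM in cluster 6. Actg1 ran the other way, at 3863 and 4990 CPM in cluster 15 against 2230 and 2775 CPM in cluster 6. In OPC-like cells Tmsb4x reached 8883 and 9981 CPM in cluster 26, led by Bsn and Kcnk10, against 2786 to 3252 CPM in the other clusters in SMA and 2967 to 3615 CPM in Con. In microglia-like cells Pfn2 was 96.3 and 109 CPM in cluster 19, with Ccl3, Tnf and Mki67 among its leading genes, against 24.2 and 27.9 CPM in cluster 3. In each of these contrasts the cluster named first lay on the same side of the others in both libraries.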

How the data were processed

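Whole spinal cord cells of 1 library labelled SMA and 1 labelled Con were measured with the 10x 3′ v3 chemistry. The authors deposited UMI counts per gene and barcode, made with Cell Ranger on mm10 (Seurat 3.2.2 is also named in the submitters' processing notes). These counts are not normalized.

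From the deposited counts, SMA barcodes also listed in Con were left out, and cells with 200 to 4000 genes and under 10% mitochondrial UMIs were kept. A cluster with a median ribosomal share over 30% was removed. No doublet caller was run, and doublets were limited by the upper number of genes. Cells were clustered by the Louvain method (igraph 0.11.9, scanpy 1.11.5, 2000 variable genes, 30 components, 20 neighbours, resolution 1), without the 10 genes, the actin lists, Smn1, Xist and Y-linked, haemoglobin, ribosomal and mitochondrial genes, and the classes were rebuilt from marker lists, so they may differ from those of the study. UMIs were summed per class and library and given as CPM with exact Poisson, conditional binomial or Clopper-Pearson 95% intervals. A gene was measured in a class with at least 100 UMIs over both libraries. Intervals were tested on counts drawn from a Poisson model, which holds no spread between cells or animals, so only counting error was covered. Genes were placed on GRCm38. The alternatives included TMM scaling (edgeR 4.0.16, R 4.3.3), and the weighting of clusters alike was added after seeing the data.

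The 10 genes, the actin lists and the markers were chosen with earlier results of these data known. Named list genes were the 12 with the largest median ratio in size, measured in at least 5 classes, and the gene of widest range in Con in each list. The 3 genes with the highest Pearson r with each member were named, with at least 500 UMIs.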

Additional observations from a re-analysis of the deposited data

Results flagged for a closer look

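Pfn2 differed between the libraries in opposite directions in 2 classes. Its log2 ratio of SMA over Con was 1.10 in fibroblast-like cells, on 78 and 173 UMIs, and -0.97 in Schwann-like cells, on 33 and 144 UMIs. Each class was 1 sample per library, and the difference between the classes was not tested. The fibroblast-like class held 63 SMA and 601 Con cells, and the ratio was 0.62 in the cluster that both libraries share. The Schwann-like ratio was -0.23 without an upper limit of genes.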

How the results depend on the processing

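No paired analysis was possible because each group was 1 library. Of all genes measured in a class, 3.22% (OPC-like cells) to 35.5% (fibroblast-like cells) passed 1.5-fold. Of the gene and class pairs of the 10 genes, 7 of 100 passed. The count was 11 with equal weight per cell, 3 of 84 at a minimum of 300 UMIs and 3 of 50 with a mitochondrial share under 5%. It lay between 6 and 9 in the other alternatives. Of the pairs of the other actin genes, 42 of 603 passed. The count was 64 of 691 at a minimum of 50 UMIs, 18 of 422 at 300 UMIs and 17 of 258 with a mitochondrial share under 5%, and between 34 and 54 in the others. The lower counts at 300 UMIs and under 5% came with fewer pairs measured. Weighting the clusters of a class alike moved the fibroblast-like ratios of Actg1 to -0.40, Pls3 to -0.17, Coro1c to -0.63, Tmsb4x to 0.19 and Actb to 0.22, since 1 of its 2 clusters had 0 SMA cells. The oligodendrocyte-like ratio of Tmsb10 ran from -0.63 with the shared barcodes kept to 0.74 with a mitochondrial limit of 20%, and the cause was not tested. Low counts limit Pls3, Coro1c and Chp1, and 1 library per group limits every ratio.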
